A study of Rattus norvegicus with 6 samples.

Results

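Aqp1 encodes aquaporin 1, the water channel of the cell membrane. It is 1 gene of the 33508 in the count table (ENSRNOG00000011648, chr4:85551502-85569360 on the plus strand in the table's own positions, 2900 bases of transcript). It was found as the row with that gene name and was chosen by its levels and its change in these same libraries, so its own values are given as a description, without a test. There were 3 libraries of BMSCs-OE-FNDC5, and another 3 came from BMSCs-OE-NC. BMSCs are bone marrow mesenchymal stem cells, here taken from the leg bones of male Sprague–Dawley rats aged 2 months. BMSCs-OE-FNDC5 had been transduced with a lentivirus carrying rat FNDC5, the precursor of the secreted peptide irisin, and BMSCs-OE-NC with the blank virus. The paper's vectors were tagged with GFP or luciferase. Both groups spent 24 h at 1% O2, 94% N2 and 5% CO2 in medium lacking glucose and serum (H/SD), so every difference below is between stressed cells with and without the transgene, and no unstressed library was compared.

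Aquaporins are small membrane proteins that let water cross the lipid bilayer along an osmotic gradient. They assemble as tetramers in which each subunit holds its own pore. Aquaporin 1 is best known from red blood cells, the proximal tubule of the kidney, the choroid plexus and the endothelium of many vessels. It passes water and has also been described to pass CO2 and, in some hands, ions. In migrating cells the protein gathers at the leading edge, where water entry accompanies actin extension, and in mesenchymal stem cells it has been studied for its part in migration. Its gene is known to respond to osmolarity, hypoxia and glucocorticoids in several cell types.

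The stretch of 250 bases before the annotated start of Aqp1 is shown because some transcription factors described further on relate to elements in it. These factors are Sp1 and the Klf factors. It is taken from RefSeq on build GRCr8 (chr4:85812534-85812783, plus strand), a build other than the one behind the positions in the count table. Capitals mark the GC box GGGCGG, the short form of the element that Sp1 family factors bind, and the TATA box TATAAA.

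Aqp1: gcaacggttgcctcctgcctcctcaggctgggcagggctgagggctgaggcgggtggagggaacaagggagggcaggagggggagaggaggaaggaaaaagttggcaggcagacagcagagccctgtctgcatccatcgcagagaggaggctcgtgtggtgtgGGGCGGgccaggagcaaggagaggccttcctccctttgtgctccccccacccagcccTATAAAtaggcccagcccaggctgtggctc

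The GC box began 87 bases before the start and the TATA box 30 bases before it. Searched on both strands over 300 bases (250 before and 50 after the start), GGGCGG was in 33.06% of 33469 rat promoters and TATAAA in 14.22%. The 5 letters CACCC, the core that Klf factors bind, matched at 2 places, 199 and 40 bases before the start, against at least 1 match in 54.87% of promoters. None of these matches overlapped another. The core of the hypoxia response element, ACGTG, and the CCAAT box, CCAAT, had no match in this window, and were present in 19.25% and 37.49% of promoters. The window was 64% G and C, against a median of 51.67% over all promoters, and 17.28% of promoters were richer. Letter matches alone describe the sequence and were not linked to expression here.

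Aqp1 was among the abundant transcripts of BMSCs-OE-FNDC5 and stood several-fold lower in BMSCs-OE-NC. Its raw counts were 38365, 37554 and 38924 in BMSCs-OE-FNDC5, against 8094, 7879 and 8117 in BMSCs-OE-NC. The 6 libraries formed a high and a low group without overlap, and within a group the counts lay close together. After TMM scaling, which sets library sizes by a trimmed mean over genes, and in CPM, the count relative to that library size, Aqp1 stood at 2537, 2561 and 2578 CPM in BMSCs-OE-FNDC5 and at 398, 393 and 410 CPM in BMSCs-OE-NC. The mean was 2559 ± 20.6 CPM in BMSCs-OE-FNDC5 and 400.1 ± 8.93 CPM in BMSCs-OE-NC (SD, n = 3 each). The coefficient of variation was 0.804% in BMSCs-OE-FNDC5 and 2.23% in BMSCs-OE-NC. On this scale the lowest BMSCs-OE-FNDC5 library was 6.19 times the highest BMSCs-OE-NC library.

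The log2 fold change of Aqp1 was 2.68 (standard error 0.02 from edgeR's fit over 12104 genes), or 6.40-fold. Fold changes here and elsewhere divide the level in BMSCs-OE-FNDC5 by the level in BMSCs-OE-NC. The deposited FPKM values, which also divide by gene length, gave 875, 884 and 891 in BMSCs-OE-FNDC5, against 135, 133 and 139 in BMSCs-OE-NC. Their means were 883 ± 7.93 and 135.6 ± 2.67 FPKM (SD, n = 3 each), a ratio of 6.51. The size of the difference depended on how the libraries were scaled. Between raw counts the ratio of the means was 4.77, because TMM factors were 0.877 to 0.882 in BMSCs-OE-FNDC5 and 1.13 to 1.14 in BMSCs-OE-NC. With library totals as the only scaling the log2 fold change was 2.31, while the median over all genes moved by -0.37. Scaling shifts all genes nearly alike, so by construction Aqp1 stood 2.72 above the median gene under both scalings.

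**Figure D1:**
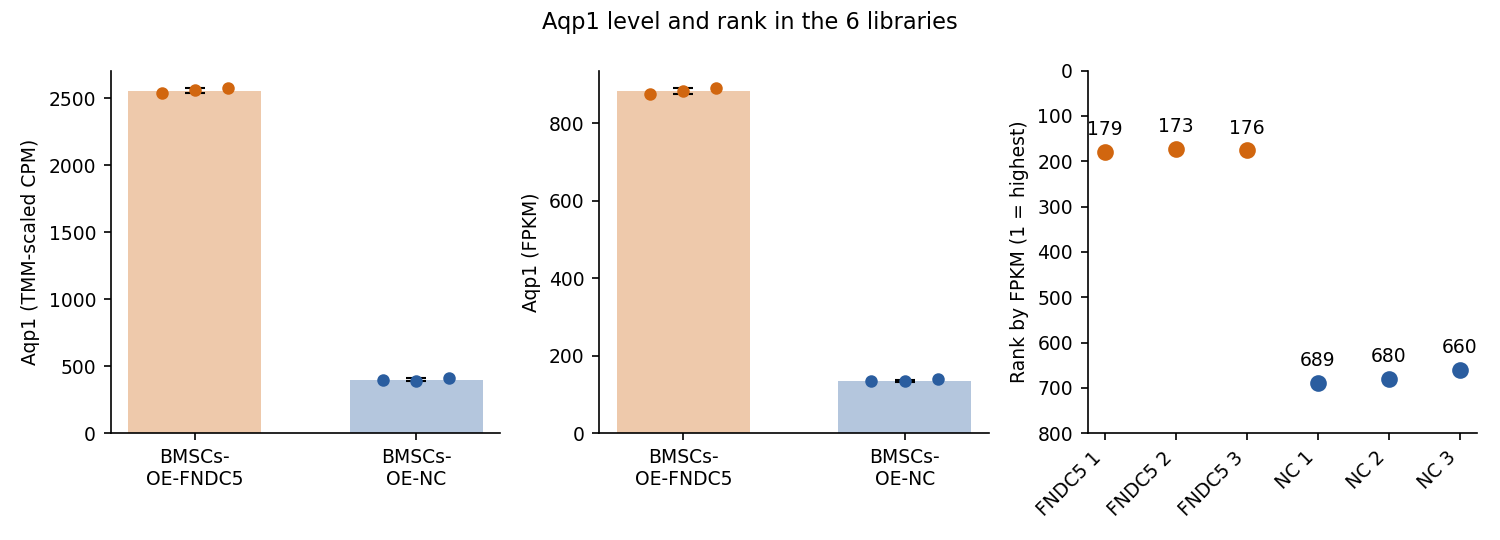
Aqp1 in TMM-scaled CPM (left), in FPKM (middle) and as its rank by FPKM within each library, 1 being the most abundant gene (right). Points are the 3 libraries of each group, bars their means and error bars the SD. The BMSCs-OE-FNDC5 libraries lie at 2537 to 2578 CPM and at ranks 173 to 179, the BMSCs-OE-NC libraries at 393 to 410 CPM and at ranks 660 to 689.

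The place of Aqp1 among the genes of a library moved with its level. In BMSCs-OE-FNDC5 it took 0.223%, 0.226% and 0.226% of all counts, against 0.0451%, 0.0447% and 0.0466% in BMSCs-OE-NC. By FPKM it ranked 179, 173 and 176 of the 14430, 14406 and 14387 genes above 0 in BMSCs-OE-FNDC5. In BMSCs-OE-NC it ranked 689, 680 and 660 of 14836, 14860 and 14844. Among the tested genes this was the top 1.43% to 1.48% in BMSCs-OE-FNDC5 and the top 5.45% to 5.69% in BMSCs-OE-NC. By raw count, which favours long genes, its rank was 53 in each BMSCs-OE-FNDC5 library and 364, 371 and 346 in the BMSCs-OE-NC libraries. Aqp1 was therefore no rare transcript in the control cells, in which most expressed genes lay below it. By mean FPKM its nearest neighbours in BMSCs-OE-FNDC5 were Eif3f, a translation initiation factor subunit, just above and Atp5f1e, a subunit of the mitochondrial ATP synthase, just below. In BMSCs-OE-NC they were Penk, which encodes proenkephalin, and Rab7a, a GTPase of late endosomes.

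Channels and carriers, of the cell membrane and of organelles such as mitochondria, were taken as a closer scale. A set of 316 tested genes, many of the channels, pumps and solute carriers, was picked by symbol after the values were seen. It did not cover all such genes, and the ATP synthase subunits were left out. Within this set Aqp1 had the highest mean FPKM in BMSCs-OE-FNDC5 and ranked 16 in BMSCs-OE-NC. Next to it in BMSCs-OE-FNDC5 came Slc25a4, the mitochondrial ADP/ATP carrier of muscle and heart, with 853 ± 8.63 FPKM in BMSCs-OE-FNDC5 and 533 ± 4.44 FPKM in BMSCs-OE-NC (SD, n = 3 each). Slc16a3, the lactate exporter MCT4, followed with 485 ± 5.29 FPKM in BMSCs-OE-FNDC5 and 313 ± 1.82 FPKM in BMSCs-OE-NC. By log2 fold change Aqp1 ranked 4 in this set. Kcnk7, a member of the potassium channel family with paired pore domains, ranked 1 as a rare transcript, with a mean of 1.10 FPKM in BMSCs-OE-FNDC5 and 0.115 FPKM in BMSCs-OE-NC.

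No other aquaporin was present at a comparable level. The table holds 12 aquaporin genes, and Aqp1 was the only member with enough counts to be tested. It made up 99.94%, 99.97% and 99.97% of aquaporin counts in the BMSCs-OE-FNDC5 libraries and 100%, 99.97% and 99.85% in the BMSCs-OE-NC libraries, with 58 counts of the other members in all against 138933 of Aqp1. Aqp2, Aqp4, Aqp5, Aqp6, Aqp7, Aqp9 and Aqp12a, which include the vasopressin-regulated channel of the collecting duct (Aqp2), the channel of astrocyte end-feet (Aqp4) and the glycerol channel of fat (Aqp7), had 0 counts in all 6 libraries. A count of 0 allows up to 3 counts, or 0.198 to 0.204 CPM in a BMSCs-OE-FNDC5 library and 0.147 to 0.151 CPM in a BMSCs-OE-NC library, counting error only. The water and glycerol channel Aqp3 had 12, 1 and 9 counts in BMSCs-OE-FNDC5, against 0, 0 and 4 in BMSCs-OE-NC. Aqp11, an intracellular member, had 10, 8 and 2 counts in BMSCs-OE-FNDC5 and 0, 2 and 5 in BMSCs-OE-NC. Both overlapped between the groups. Mip, the lens aquaporin, had 1, 1 and 0 counts in BMSCs-OE-FNDC5 and 0, 0 and 1 in BMSCs-OE-NC. Aqp8 had 0 counts in every BMSCs-OE-FNDC5 library and 0, 0 and 2 in BMSCs-OE-NC. The highest FPKM of any member but Aqp1 was 0.512.

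**Figure D2:**
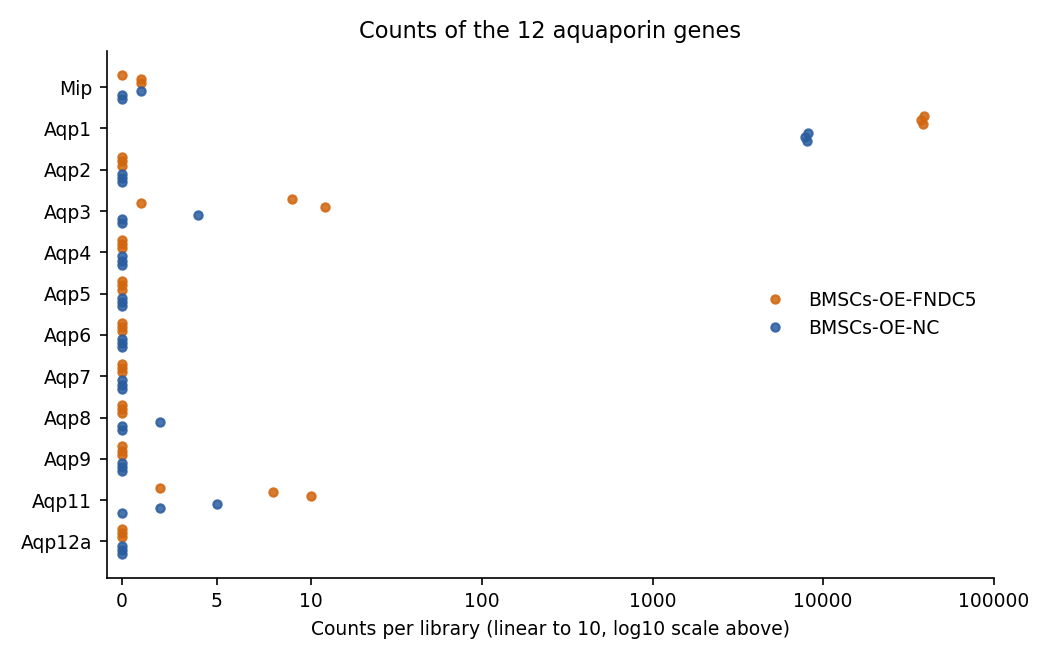
Counts of each of the 12 aquaporin genes in the 6 libraries, BMSCs-OE-FNDC5 above BMSCs-OE-NC within each gene; the axis is linear to 10 and logarithmic beyond. Aqp1 lies at 37554 to 38924 counts in BMSCs-OE-FNDC5 and 7879 to 8117 in BMSCs-OE-NC, and no other member exceeds 12 counts.

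The libraries as a whole differed widely. Totals were 16640635 to 17229490 counts in BMSCs-OE-FNDC5 and 17430287 to 17965722 in BMSCs-OE-NC. Fndc5 had 65589, 64672 and 64195 counts in BMSCs-OE-FNDC5 against 22, 17 and 25 in BMSCs-OE-NC, as labelled. Of 12104 genes tested, 36.9% rose and 38.8% fell at an adjusted p under 0.05 (edgeR's quasi-likelihood test, Benjamini-Hochberg), and with library totals as the only scaling 71.6% of the called genes were lower, against 51.2% with TMM. With a log2 fold change beyond 1 as well, 9.84% were higher and 17.5% lower, and in 78.3% of genes the groups did not overlap. The labels call the replicates biological without saying that they came from separate rats, cultures or transductions, so p-values measure the spread between these libraries. In bulk RNA, more cells with a transcript and more RNA per cell cannot be told apart. The extraction label speaks of retinas and the processing notes name the mouse build mm10, while the source is bone marrow and the gene identifiers are of rat.

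By log2 fold change Aqp1 ranked 61 of 12104 genes tested, and 163 when falls counted as well. Most genes ahead of it were rare. Of the 60 genes with a larger rise, 43 had a mean under 10 CPM, and all 60 had a larger standard error than Aqp1. Only Fndc5 and the 84-base row Mir675 among them exceeded Aqp1 in mean FPKM in BMSCs-OE-FNDC5. It ranked 18 among the 7504 genes that averaged 10 CPM or more, and 5 among the 1953 that averaged 100 CPM or more. The 4 ahead of it there were Fndc5, Mgmt, Nqo1 and Kcnn4. Their log2 fold changes were 11.98 for Fndc5, 3.44 for Mgmt, which repairs alkylated guanine in DNA, 2.94 for Nqo1, a quinone reductase of the antioxidant response, and 2.71 for Kcnn4, the calcium-activated potassium channel KCa3.1. In absolute terms Aqp1 gained 2159 CPM, the rank of 23 among all genes tested, and 747 FPKM, the rank of 87. All these ranks come from the same values that chose the gene.

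Right beside Aqp1 by log2 fold change lay genes of lower and less even counts. Among the 5 next above were Kcnn4, Aldh18a1 (proline synthesis), Pcsk2 (a prohormone convertase) and Pla2g7 (a secreted phospholipase). Aldh18a1 had 24, 16 and 225 counts in BMSCs-OE-FNDC5 and 10, 13 and 31 in BMSCs-OE-NC, so the groups overlapped. Of the 5 next below, Tppp3, a tubulin-binding protein, had 61, 44 and 63 counts in BMSCs-OE-FNDC5 and 11, 13 and 11 in BMSCs-OE-NC. The other named ones were LOC497963, LOC100359515 and Cdkn1a, which encodes the cyclin-dependent kinase inhibitor p21. The unnamed row among them, with 1008, 18 and 16 counts in BMSCs-OE-FNDC5 and 4, 204 and 10 in BMSCs-OE-NC, did not pass the test.

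**Figure D3:**
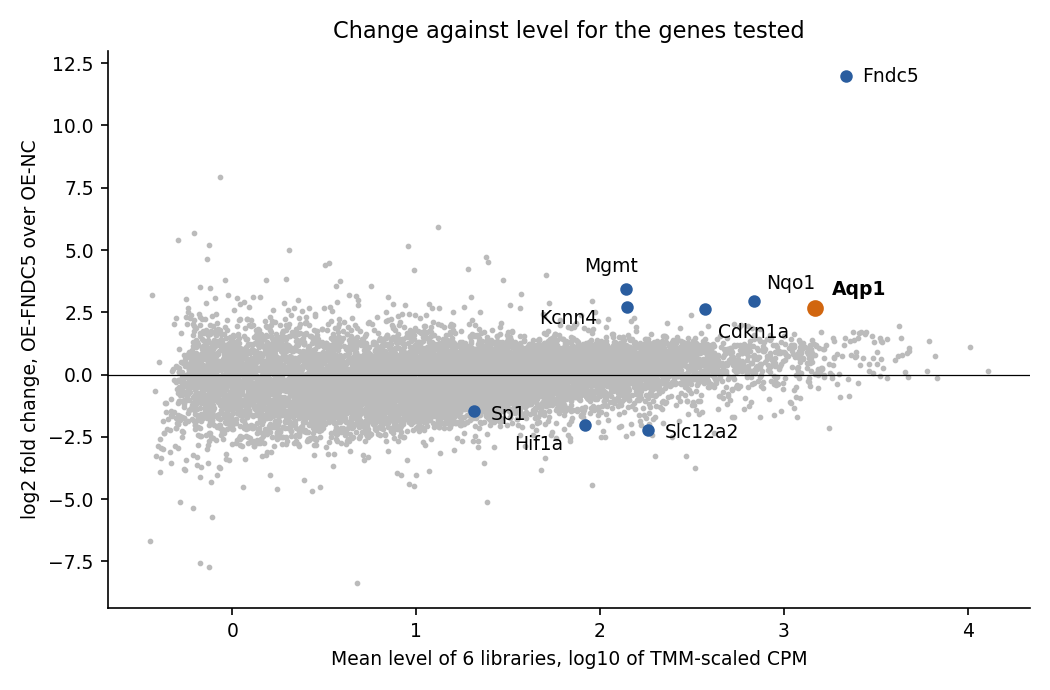
Log2 fold change (OE-FNDC5 over OE-NC) against the mean level of the 6 libraries in log10 of TMM-scaled CPM, 1 point for each of 12104 genes tested, with Aqp1 in orange and named genes in blue. Aqp1, at 2.68, lies to the right of most genes that changed as much, near Nqo1 at 2.94 and far below Fndc5 at 11.98.

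Gene length moved with the change in these libraries, and Aqp1 was set against genes of its own length. In the length class that holds it (2800 to 3530 bases, 1513 genes, class 6 of 8) the median log2 fold change was -0.26 and the central 80% of genes lay between -1.48 and 0.58, against a median of -0.04 over all genes. Aqp1 ranked 4 in this class. With each library's trend of counts with length taken out as an offset, its log2 fold change was 2.84.

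Reference genes used for normalization in PCR gave a second scale that does not use the library total. The ratio of the Aqp1 count to that of the reference gene was higher in every BMSCs-OE-FNDC5 library than in any BMSCs-OE-NC library for 11 of 12 references. Aqp1 was chosen with its change known, so this separation is a description of that change and no test of it. The log2 difference between the groups ran from 1.34 with Rplp0, a ribosomal protein, to 3.69 with Hprt1, with a median of 2.66. Among the others it was 1.76 with Gapdh, 2.03 with Ppia, 2.29 with Pgk1, 2.56 with Sdha, 2.77 with Actb, 2.82 with Eef1a1, 3.01 with Ywhaz, 3.12 with B2m and 3.16 with Tbp. The references themselves also differed between the groups. Rplp0 rose by 1.33 on the log2 scale (adjusted p = 1.1e-12, edgeR's quasi-likelihood test), Gapdh by 0.92, Ppia by 0.65 and Pgk1 by 0.39. Ppia was at 0.05 with the length trend as an offset, and Pgk1 at 0.02 with library totals as the only scaling, without passing (adjusted p = 0.47). Sdha passed at 0.12, did not pass with upper-quartile scaling and was at -0.25 with library totals alone. Tbp fell by 0.47, B2m by 0.44, Ywhaz by 0.33, Eef1a1 by 0.14 and Actb by 0.09. The call of Actb was lost in both fits to log2 FPKM, and that of Tbp when either BMSCs-OE-FNDC5 replicate 1 or 2, or BMSCs-OE-NC replicate 1 or 3, was left out. Hprt1 had 5, 191 and 2 counts in BMSCs-OE-FNDC5 and 34, 4 and 279 in BMSCs-OE-NC, an uneven gene that did not pass (log2 fold change -0.25, adjusted p = 0.87), and its value ran from -4.47 to 2.24 over the alternatives. It was the reference whose ratio overlapped between the groups.

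Across the 6 libraries the profile closest to that of Aqp1 was that of Kcnn4. Likeness was the root mean square difference of log2 CPM, each gene centred on its own mean, over 6 libraries and 7504 candidate genes averaging 10 CPM or more. For Kcnn4 this difference was 0.05, for Cdkn1a 0.05, for Spc24, a subunit of the NDC80 kinetochore complex, 0.06 and for Scx, the tendon transcription factor scleraxis, 0.09. Fam25a followed at 0.13, Mir675 at 0.13, Nqo1 at 0.14 and Fabp5, a fatty acid binding protein, at 0.15. With 2 groups of 3 even libraries, the measure mainly ranks genes by how near their fold change is to that of Aqp1.

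Kcnn4 had 3823, 3530 and 3572 counts in BMSCs-OE-FNDC5, against 785, 730 and 725 in BMSCs-OE-NC. Cdkn1a had 10011, 9305 and 9522 counts in BMSCs-OE-FNDC5 and 1987, 2128 and 2091 in BMSCs-OE-NC. Neither gene overlapped between the groups, which also held for 78.3% of all genes tested. Both were picked for a profile like that of Aqp1, and both stood at a lower level than Aqp1. Scx had 2384, 2384 and 2412 counts in BMSCs-OE-FNDC5, with a mean of 160 ± 2.46 CPM against 28.1 ± 0.407 CPM in BMSCs-OE-NC (SD, n = 3 each). The Mir675 row is 84 bases long, and the hairpin lies within the H19 transcript, so reads of the host and of the miRNA precursor cannot be told apart in it.

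**Figure D4:**
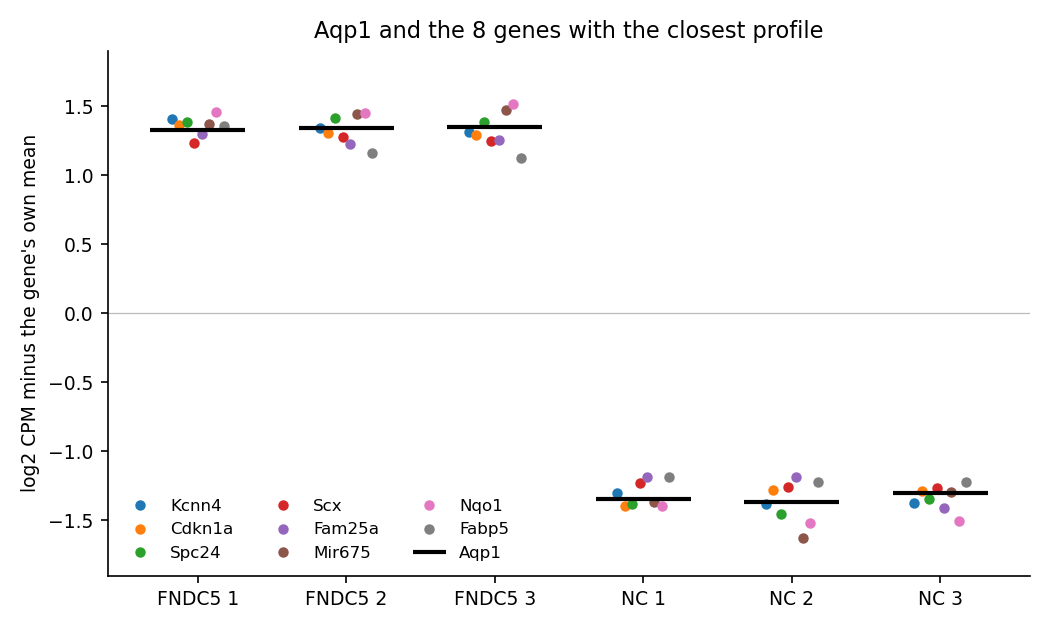
Log2 CPM of Aqp1 (black bars) and of the 8 genes with the closest profile (points) in each library, each gene centred on its own mean. All 9 lie above 1 in the BMSCs-OE-FNDC5 libraries and below -1 in the BMSCs-OE-NC libraries.

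On the chromosome, Aqp1 was bordered by silent or weakly expressed genes. No other row of the table overlapped it. Of the 3 named genes before it, Crhr2, a receptor of the urocortins, and Inmt, a methyltransferase of amines, had 0 counts in all libraries. Mindy4, a predicted deubiquitinase that ends 19.3 kb before Aqp1 starts, had 144, 174 and 178 counts in BMSCs-OE-FNDC5 and 128, 110 and 94 in BMSCs-OE-NC. It rose by 1.00 on the log2 scale (standard error 0.15, adjusted p = 9.9e-05, edgeR's quasi-likelihood test). After Aqp1 came Ghrhr, the receptor of growth hormone releasing hormone, with 2, 0 and 0 counts in BMSCs-OE-FNDC5 and 0, 2 and 0 in BMSCs-OE-NC. Adcyap1r1, the receptor of the neuropeptide PACAP, had 144, 159 and 156 counts in BMSCs-OE-FNDC5 and 73, 83 and 106 in BMSCs-OE-NC, and rose by 1.23 (standard error 0.16, adjusted p = 3.9e-05), or 1.95 with the length trend as an offset. Neurod6, a neuronal transcription factor, had 1, 2 and 3 counts in BMSCs-OE-FNDC5 and 8, 2 and 3 in BMSCs-OE-NC. Within 1 Mb on either side lay 22 other rows, of which 11 were tested, 5 rose and 4 fell, against 36.9% and 38.8% over all genes.

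Transcription factors that have been tied to Aqp1 in other settings were mostly lower. Of 11 listed, 10 were in the table and 8 were tested. Of these 1 rose, 6 fell and 1 did not pass, against 36.9% rising and 38.8% falling over all genes. The median log2 fold change was -1.07 against -0.04 over all genes, and 4 of the 8 fell beyond 1, against 17.5% of all genes. With the length trend as an offset 6 still fell, but only Hif1a beyond 1, against 1676 of all 12104 genes. The median was then -0.57, against -0.03 over all genes. Hif1a, the oxygen-sensitive subunit of HIF-1, had 516, 418 and 539 counts in BMSCs-OE-FNDC5, against 2712, 2647 and 2645 in BMSCs-OE-NC, and fell by 2.02 on the log2 scale (adjusted p = 2.8e-10, edgeR's quasi-likelihood test), or by 1.63 with the length trend as an offset. Epas1, which encodes HIF-2 alpha, fell by 1.52, or by 0.98 with that offset, at 23, 29 and 19 counts in BMSCs-OE-FNDC5 and 89, 85 and 100 in BMSCs-OE-NC. Nfat5, the factor of the response to high salt, had 141, 140 and 123 counts in BMSCs-OE-FNDC5, against 482, 554 and 498 in BMSCs-OE-NC, and fell by 1.50, or by 0.40 with the offset. Sp1, which binds the GC box, had 152, 176 and 161 counts in BMSCs-OE-FNDC5 and 593, 636 and 597 in BMSCs-OE-NC, and fell by 1.48 (adjusted p = 6.0e-08), or by 0.64 with the offset. In each of these 4 genes all BMSCs-OE-FNDC5 libraries lay below all BMSCs-OE-NC libraries. The groups also did not overlap in 78.3% of all genes tested. The members of AP-1 fell less, Fos by 0.66 and Jun by 0.17, the value of Jun being 0.05 with the offset. The call of Fos was lost with DESeq2. Klf4 was the member that rose, by 1.01, with 1043, 1103 and 1102 counts in BMSCs-OE-FNDC5 and 729, 740 and 697 in BMSCs-OE-NC. Klf2 did not pass (log2 fold change -0.02, adjusted p = 0.87), but fell by 0.39 with library totals alone and by 0.49 with the offset. The estrogen receptor Esr1 and the erythroid factor Gata1 had 0 counts in all libraries. Transcript levels of factors do not give their activity, and under hypoxia HIF is set mainly through its protein.

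Genes induced by hypoxia moved in both directions. Of 20 tested, 8 rose and 10 fell, with a median of -0.09, against 36.9% rising and 38.8% falling over all genes. The lactate dehydrogenase Ldha rose by 0.62, Higd1a, a mitochondrial protein of the hypoxia response, by 1.38 and Pgk1 by 0.39, the call of Pgk1 being lost with library totals alone. The vasodilator peptide gene Adm fell by 2.56, to 48, 67 and 102 counts in BMSCs-OE-FNDC5 against 589, 610 and 520 in BMSCs-OE-NC, and the histone demethylase Kdm3a fell by 1.75. Hk2, a hexokinase, fell by 0.55 with TMM and was at 0.06 with the length trend as an offset. With library totals as the only scaling 2 rose and 13 fell, and with the length trend as an offset 7 rose and 6 fell.

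Channels, transporters and kinases of cell volume and salt form the list nearest to the function of Aqp1. Of 23 tested, 4 rose, 11 fell and 8 did not pass, with a median of -0.13, against 36.9% rising and 38.8% falling over all genes. Kcnn4, which lets potassium leave the cell when calcium rises, was the member with the closest value to Aqp1 (log2 fold change 2.71, adjusted p = 1.0e-12, edgeR's quasi-likelihood test). Slc12a2, the sodium, potassium and chloride cotransporter NKCC1 that loads cells with salt, had 913, 940 and 1025 counts in BMSCs-OE-FNDC5 and 6114, 6053 and 5873 in BMSCs-OE-NC. It fell by 2.22 (standard error 0.04), or by 1.50 with the length trend as an offset. Trpm7, a channel kinase for magnesium and calcium, fell by 3.30, or by 2.67 with that offset, to 15, 13 and 17 counts in BMSCs-OE-FNDC5, against 187, 195 and 216 in BMSCs-OE-NC. Oxsr1, a kinase that activates NKCC1, fell by 0.64, or by 0.16 with the offset. The sodium pump subunit Atp1b3 fell by 0.53, or by 0.71 with the offset. The direction of the list as a whole depended on the scaling, with 2 rising and 15 falling by library totals alone, and 10 rising, 8 falling and a median of 0.09 with the length trend as an offset.

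The osmotic stress list had 9 tested genes, of which 3 rose and 5 fell, with a median of -0.26, against 36.9% and 38.8% of all genes. Akr1b1, the aldose reductase that makes sorbitol, had 8569, 8045 and 8612 counts in BMSCs-OE-FNDC5 and 5054, 5065 and 4733 in BMSCs-OE-NC, and rose by 1.19 on the log2 scale. Slc38a2, an amino acid importer that responds to hypertonicity, fell by 1.52 to 2695, 2709 and 2972 counts in BMSCs-OE-FNDC5 against 10966, 10705 and 10537 in BMSCs-OE-NC. Both are targets named for the osmotic response, and they moved in opposite directions. Sgk1, a kinase of sodium transport, rose by 0.81 and the scaffold Ccm2 by 0.47, while the kinase Map3k3 fell by 0.56. Map3k3 was at -0.07 with the length trend as an offset and then did not pass (adjusted p = 0.19, edgeR's quasi-likelihood test). With the length trend as an offset 4 rose and 2 fell.

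For CO2, bicarbonate and acid, 12 of 20 listed genes were tested, of which 3 rose and 5 fell, with a median of -0.02, against 36.9% and 38.8% of all genes. Slc16a3, which exports lactate with a proton, rose by 0.60, the anion exchanger Slc4a2 by 0.42 and the mitochondrial carbonic anhydrase Car5b by 0.57. Slc4a2 was at 0.05 with library totals as the only scaling and then did not pass. Slc16a1, the lactate carrier MCT1, fell by 1.06 and the sodium bicarbonate cotransporter Slc4a7 by 1.15. Slc4a3 fell by 0.34 and was at 0.15 with the length trend as an offset. The cytosolic carbonic anhydrase Car2 had 0 counts in all libraries, and Car9, the hypoxia-induced carbonic anhydrase of the cell surface, had 1233, 1271 and 1327 counts in BMSCs-OE-FNDC5 and 1698, 1552 and 1680 in BMSCs-OE-NC without passing the test (log2 fold change 0.06, adjusted p = 0.26). With library totals alone Car9 fell by 0.31 (adjusted p = 8.9e-05), and its sign also turned with upper-quartile scaling and with the length trend as an offset.

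Actin genes of the leading edge, where aquaporin 1 gathers in moving cells, were split. All 25 were tested, 11 rose, 12 fell and 2 did not pass, with a median of -0.06, against 36.9% rising and 38.8% falling over all genes. Profilin (Pfn1) rose by 0.93, the Arp2/3 subunits Arpc1b and Arpc4 by 0.83 and 0.69, and Brk1, a small subunit of the WAVE complex, by 0.93. Nckap1, another WAVE subunit, fell by 2.24 to 243, 200 and 258 counts in BMSCs-OE-FNDC5 against 1551, 1380 and 1517 in BMSCs-OE-NC. The Arp2/3 subunit Actr2 fell by 0.81. Pfn1 was at 0.35, Arpc1b at 0.53, Arpc4 at 0.36 and Brk1 at 0.47 with the length trend as an offset. Nckap1 was then at -1.99 and Actr2 at -1.06. Subunits of the same complex thus lay on both sides, and beyond 1 there were 0 rises and 4 falls among the 25, against 9.84% and 17.5% of all genes tested. Among these falls Cttn was uneven and overlapped between the groups. It stood at 64.9, 21.4 and 30.1 CPM in BMSCs-OE-FNDC5 and at 64.0, 124 and 124 CPM in BMSCs-OE-NC. With library totals as the only scaling 5 rose and 17 fell.

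**Figure D5:**
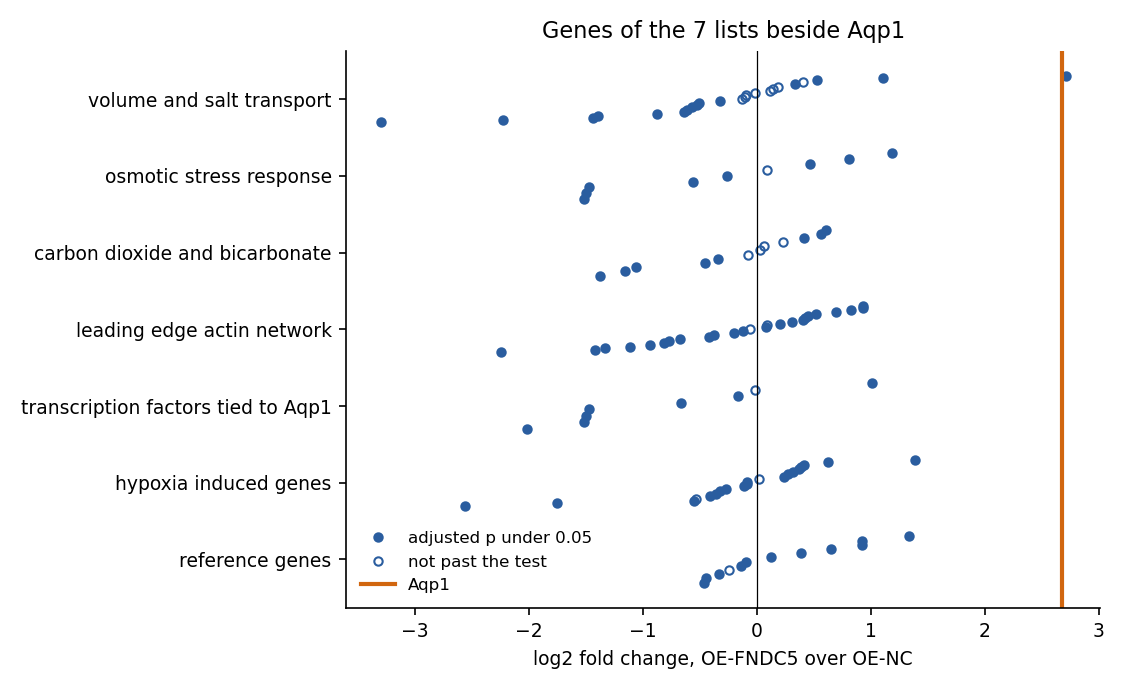
Log2 fold changes (OE-FNDC5 over OE-NC) of the tested genes of 7 lists, 1 point a gene, filled where the adjusted p was under 0.05 in edgeR's quasi-likelihood test, with Aqp1 as the orange line at 2.68. Kcnn4, at 2.71 in the volume and salt list, is the point at the line, and every other point lies to its left.

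Because Aqp1 marks several other cell types, their markers were measured too. Several genes that define these types were at 0 in every library: Hbb and Alas2 of red cells, Cdh5, Kdr and Flt1 of endothelium, Epcam and Cdh1 of epithelium, Lrp2 and Umod of kidney tubule, Ttr and Kcnj13 of choroid plexus, and Ptprc of leukocytes. Of the members with enough counts, Klf1 of the erythroid list rose by 1.32 and Egfl7 of the endothelial list by 0.81. Folr1 of the kidney and choroid plexus list rose by 1.45. In the epithelial list Krt8 rose by 0.98 and Msln by 0.07, while Wt1 fell by 0.44. In the leukocyte list Cd14 rose by 1.00 and Cd68 by 0.75, while Cd74 fell by 3.22. The calls of Msln and Cd68 were lost under some alternatives. The sign of Msln also turned with upper-quartile scaling and with library totals alone. With library totals alone it was at -0.30 (adjusted p = 1.0e-07, edgeR's quasi-likelihood test). The erythroid list, 6 of 12 at 0, summed to 3.27 to 3.77 CPM in BMSCs-OE-FNDC5 and 1.30 to 1.52 CPM in BMSCs-OE-NC. The endothelial list, 10 of 14 at 0, summed to 90.6 to 94.2 CPM in BMSCs-OE-FNDC5 and 51.8 to 55.3 CPM in BMSCs-OE-NC, almost all of it Egfl7. The kidney and choroid plexus list, 7 of 10 at 0, summed to 1.02 to 1.92 CPM in BMSCs-OE-FNDC5 and 0.491 to 0.748 CPM in BMSCs-OE-NC. The epithelial and mesothelial list, 7 of 13 at 0, summed to 1550 to 1586 CPM in BMSCs-OE-FNDC5 and 1489 to 1509 CPM in BMSCs-OE-NC, nearly all Msln. The leukocyte list, 3 of 10 at 0, summed to 199 to 207 CPM in BMSCs-OE-FNDC5 and 103 to 109 CPM in BMSCs-OE-NC, nearly all Cd14. A marker sum does not give the Aqp1 RNA that such cells would hold, and the part of such cells in the result was not tested.

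The mesenchymal stem cell markers that define the labelled cells were present in all libraries, except Lepr, with 5, 1 and 5 counts in BMSCs-OE-FNDC5 and 0, 0 and 1 in BMSCs-OE-NC. Of the 11 tested, 3 rose, 7 fell and 1 did not pass, against 36.9% and 38.8% of all genes. Beyond 1, 6 fell and 1 rose, against 17.5% and 9.84% of all genes, and the median log2 fold change was -1.02. Pdgfra fell by 1.86, Cxcl12 by 1.72 and Pdgfrb by 1.62, while Thy1 rose by 1.29. In the same order they were at -1.13, -1.11, -0.97 and 0.93 with the length trend as an offset. The whole list summed to 5334 to 5738 CPM in BMSCs-OE-FNDC5 and 7536 to 8103 CPM in BMSCs-OE-NC.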

How the data were processed

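RNA-seq libraries were made by the authors with an Illumina TruSeq kit. The counts per gene were deposited as whole numbers, for which the submitters' processing notes give HTSeq 0.6.0, HISAT2 2.1.0 and Bowtie2 2.2.3, besides TopHat2, DESeq2 and CASAVA, and no step for any of them. The rat genome build and the strand setting are not given in the sources used here. The FPKM values deposited by the authors equal the count divided by gene length and by 1 constant per library.

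The counts were fitted with edgeR 4.0.16 under R 4.3.3 (filterByExpr, minimum count 10 and minimum total 15, TMM, quasi-likelihood test with group as the term), with Benjamini-Hochberg adjustment across the 12104 tested genes. A gene rose or fell at an adjusted p under 0.05. With 3 libraries a group, a two-sided permutation test cannot go below 0.1. Replicates were not copies of one another, with chi-square per degree of freedom of at least 3.96 within groups.

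The gene and the lists were chosen with earlier results of these data known. Named genes were Aqp1, the aquaporins, 3 named genes to each side on the chromosome, the 8 closest profiles, the 5 next genes by change to each side, Fndc5, all transcription factors and reference genes, and, of each other list, at most the 6 that passed with the lowest p. Other symbols were named after their values were seen. One listed factor was not analysed here, and a few genes that the rule would name are not reported here. Alternatives were RLE, upper-quartile or no TMM scaling, 2 other filters, DESeq2 1.42.0, limma-voom (limma 3.58.1), limma on log2(FPKM + 1) and log2(FPKM + 0.1), a length offset (lowess, span 0.3), a replicate block and leaving out each library. Promoters came from RefSeq (GRCr8). Plots used matplotlib 3.10.9 under Python 3.11.15.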

Additional observations from a re-analysis of the deposited data

How the results depend on the processing

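The log2 fold change of Aqp1 was 2.68 and stayed positive under all 17 alternatives. It was 2.57 with upper-quartile scaling, 2.31 with library size only and 2.84 with the length trend as offset, and 2.66 to 2.69 when a library was left out. The replicate numbers did not pair the libraries (same-numbered correlations 0.02, -0.01 and -0.01), and with a replicate block the log2 fold change was 2.68 and the rank 56. The rank by change, 61, depended on which low genes were kept. It was 555 with no filter, 401 with DESeq2, 26 where every library had 10 counts or more, 19 with log2(FPKM + 1), 40 with log2(FPKM + 0.1) and 67 to 88 when a library was left out. With library size only 2659 genes rose, against 4469, and 483 rose and 3338 fell past both thresholds, against 1191 and 2124. With log2(FPKM + 1) 706 fell past both. Of 238 list counts 229 stayed within 1.5 times. Library size only gave 2 rises in the volume list, 5 in the actin list and 2 in the hypoxia list, against 4, 11 and 8. The length offset gave 10 rises in the volume list against 4, and 2, 3 and 6 falls in the osmotic, CO2 and hypoxia lists against 5, 5 and 10. Falls in the hypoxia list were 6 with DESeq2 and 6 without BMSCs-OE-NC replicate 3. The cause of these moves was not tested. Aqp1 itself had 7879 counts or more in every library, so depth does not limit its value, whereas the other aquaporins, at 12 counts or fewer, were too rare to be tested.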
